A study of Mus musculus with 7 samples.

Results

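The cells described here are Slfn4 Arg1 macrophages of mouse malignant peripheral nerve sheath tumors (MPNSTs), 576 of the 33136 cells retained from 7 tumors (1.74%). A retained cell had at least 500 detected genes and at most 10% of its unique molecular identifiers (UMIs, the counted RNA molecules) from mitochondrial genes. A cell was taken when it held a UMI of Csf1r or Adgre1, which mark macrophages, and at least 1 UMI of at least 2 of the 3 genes Chil3, Slfn4 and Arg1. It also had to hold fewer than 2 UMIs of Ly6c2, no Atp6v0d2, fewer than 3 UMIs of Cxcl9, no Mki67, Top2a or CD3 gene, and at most 1 UMI of the tumor genes Tafa1, Unc5c and Col11a1. The cells were thus chosen by the counts of these 16 genes, whose levels are given as a description only.

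JW23.3 cells, a mouse MPNST line mutant for Nf1 and Trp53, were implanted under the skin of wildtype female C57/B6 mice aged 5 to 6 weeks. Mice were randomized on day 7, and 4 tumors received 5 daily fractions of 2 Gy while 3 control tumors received none. All tumors were taken on day 21, and each gave 1 droplet-based 3' RNA library. Deposited cells per library ranged from 2859 to 8452, and median UMIs per deposited cell from 6059 to 17931.

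Macrophages in tumors arise largely from blood monocytes, which lose monocyte genes and take on antigen presentation, repair or interferon programs as they mature. Arginase 1, made from Arg1, splits arginine and is a classic gene of macrophages in wounds and tumors. Slfn4 belongs to the Schlafen family, which type I interferon induces in myeloid cells. Chil3 encodes the chitinase-like protein Ym1, and Clec4e encodes Mincle, a lectin that senses damaged cells and mycobacterial glycolipids.

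Most of the chosen cells carried Slfn4 and Arg1 without Chil3. Slfn4 was found in 555 cells (96.4%) and Arg1 in 530 (92.0%), but Chil3 in only 110 (19.1%). The pair Slfn4 and Arg1 alone accounted for 466 cells (80.9%), Chil3 with Slfn4 for 46, Chil3 with Arg1 for 21 and all 3 genes for 43. The cells are therefore named here by Slfn4 and Arg1. The median cell held 5 UMIs of the 3 genes, and 102 cells (17.7%) were at the edge of the rule with 1 UMI of each of 2 genes.

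The cells carried macrophage RNA and little of any other blood lineage. C1qa, a subunit of the complement component C1q, stood at 4603 to 5065 CPM (the count of a gene scaled to a fixed total of UMIs) in the irradiated tumors and at 3831 to 5470 CPM in the controls. All 13 macrophage markers were present, with a summed level of 17247 to 19805 CPM in irradiated and 14861 to 19988 CPM in control tumors. The 12 granulocyte markers summed to between 40.9 and 77.4 CPM, and S100a9, Retnlg, Ly6g and Ngp were at 0. The 11 T and NK cell markers summed to at most 6.3 CPM, with 7 of them at 0, among which the CD3 genes were set to 0 by the rule. Xist, which marks RNA of the female host, was found in 92.1% of the cells and in 2.56% of tumor cells at 4000 UMIs. Values at 4000 UMIs are from cells thinned to that depth and gated anew, with shallower cells left out. Scrublet called none of the 576 cells a doublet, against 2.02% of all deposited cells. Among retained cells, 127 barcodes occurred in more than 1 library, and 4 of the chosen cells shared a barcode with a cell of another library.

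The label inflammatory was borne out only in part. Clec4e was found in 13.7% of the cells at 4000 UMIs, against 4.46% of comparison macrophages, 29.3% of Ly6c2 monocytes, 0 of 433 T cells, which allows up to 0.693%, and 0.0607% of tumor cells. Il1b, which encodes the cytokine interleukin 1 beta, was lower than in comparison macrophages in all 7 tumors. Among 11 inflammatory cytokine and chemokine genes described below it was the only one lower in all 7 tumors, while 5 were higher in all 7. Comparison macrophages are the 7600 cells that met every limit of the rule but held at most 1 of the 3 genes. At least 2 of the 3 genes, whatever the other limits, were found in 0 of 433 T cells (up to 0.693%), 0 of 328 endothelial cells (up to 0.915%) and 5 of 13179 tumor cells (0.0379%) at that depth. Among Ly6c2 monocytes, which the Ly6c2 limit left out, 147 of 358 (41.1%) held at least 2 of the 3 genes.

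Sequences upstream of 3 genes are shown because Slfn4 and Chil3 chose the cells and Isg15 is an interferon gene that was higher in them in all 7 tumors. Each is the 250 bases before the RefSeq transcription start in GRCm38.p6, written 5′ to 3′ on the gene's strand, with matches to GAAANNGAA or its reverse complement in capitals. This pattern is a shortened form of the interferon-stimulated response element.
Isg15, chr4:156200819-156201068, minus strand: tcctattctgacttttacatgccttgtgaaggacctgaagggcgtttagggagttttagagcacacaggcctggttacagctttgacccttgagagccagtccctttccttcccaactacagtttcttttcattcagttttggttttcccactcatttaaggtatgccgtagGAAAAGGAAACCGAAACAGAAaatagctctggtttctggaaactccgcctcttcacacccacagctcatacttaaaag
Chil3, chr3:106167565-106167814, minus strand: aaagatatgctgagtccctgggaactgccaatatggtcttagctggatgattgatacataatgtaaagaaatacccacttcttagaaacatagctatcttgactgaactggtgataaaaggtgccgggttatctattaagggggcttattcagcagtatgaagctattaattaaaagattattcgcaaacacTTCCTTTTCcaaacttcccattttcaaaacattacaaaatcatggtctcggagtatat
Slfn4, chr11:83174936-83175185, plus strand: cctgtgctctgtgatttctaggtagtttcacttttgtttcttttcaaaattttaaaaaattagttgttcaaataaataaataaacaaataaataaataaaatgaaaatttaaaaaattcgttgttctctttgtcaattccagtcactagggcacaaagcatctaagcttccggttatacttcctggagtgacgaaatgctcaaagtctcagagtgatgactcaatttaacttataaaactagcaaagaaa
Isg15 held 3 matches, Chil3 held 1 and Slfn4 held none in this window. The pattern occurred in 7.13% of 32851 such windows. Of the 20 genes with the highest ratio described below, 17 had a window in the table and 2 of these held a match, while 13 of the 20 lowest had a window and 0 held one, beside 8.18% of all 27025 genes with a window. A match is a run of letters only and no match says nothing of what binds there.

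The share of these cells varied widely between tumors and did not differ between groups beyond that spread. A rule that asks for 1 UMI admits more cells in deeper libraries, so cells were thinned to 4000 UMIs before the shares were compared. The macrophage compartment, which is all retained cells with Csf1r or Adgre1 that met the cycling, T cell and tumor limits, was the denominator. Shallower cells were left out, 800 of the compartment in irradiated and 1899 in control tumors. The rule was applied anew to the thinned counts, where it took 230 cells in irradiated and 61 in control tumors. Its upper limits are easier to meet there, and the compartment of control tumor 1 went from 981 to 1011 cells. At 4000 UMIs the cells made up 0.785%, 3.41%, 7.38% and 13.1% of the compartment in irradiated tumors 1 to 4. In control tumors 1 to 3 they made up 3.76%, 1.11% and 0.79%. Irradiated tumors 3 and 4 lay above every control, whereas irradiated tumor 1 lay below all of them. The means were 6.18% ± 5.36 (SD, n = 4) and 1.89% ± 1.63 (SD, n = 3), a difference of 4.29 percentage points (two-sided exact permutation test over 35 splits, p = 0.4, adjusted p = 0.533 over 4 shares). The smallest p that this test can give with 4 and 3 tumors is 0.0571. Without thinning the shares were 1.31% to 19.2% in irradiated and 1.29% to 8.97% in control tumors.

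**Figure D1:**
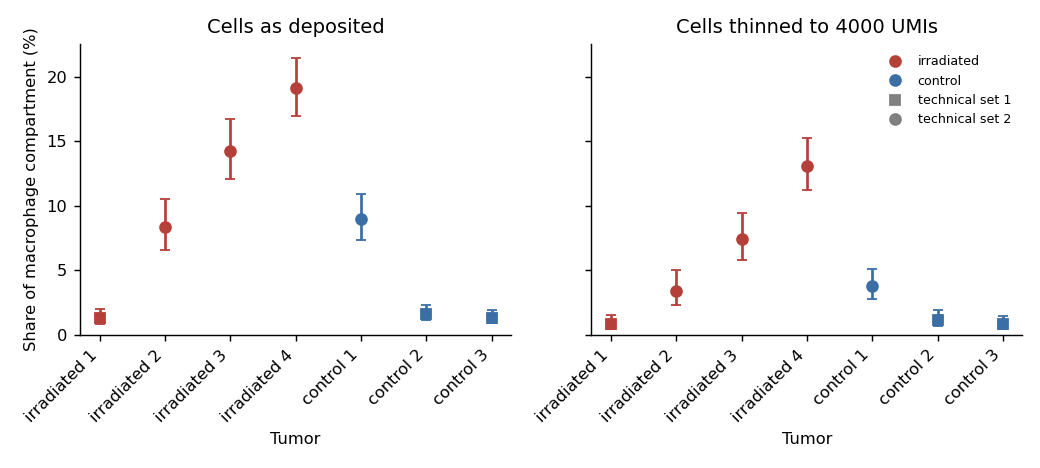
Share of Slfn4 Arg1 macrophages in the macrophage compartment of each tumor (y axis, percent), before thinning at left and at 4000 UMIs per cell at right. Points are single tumors, bars are 95% Wilson intervals that cover counting error only, and squares and circles mark the 2 technical sets. The 3 squares lie at or below 1.62% in both panels.

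The tumors fell into 2 technical sets, not sharply apart, by cell number, UMIs, genes and mitochondrial share. Set 1 held irradiated tumor 1 with control tumors 2 and 3, and set 2 held irradiated tumors 2, 3 and 4 with control tumor 1. The share split by these sets. Within set 1 irradiated minus control was -0.166 percentage points, and within set 2 it was 4.21 points. With the set as a term the difference was 2.15 points (exact permutation within sets, p = 0.75, smallest possible p 0.0833). What makes the sets differ was not tested.

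As a share of all retained cells with at least 4000 UMIs, the cells made up 0.185% to 5.61% in irradiated and 0.213% to 0.866% in control tumors (difference 1.87 points, exact permutation p = 0.229, adjusted p = 0.457). The rule itself uses Arg1, Slfn4 and Chil3. The shares of the cells with Arg1 and with all 3 genes count among the 4 shares adjusted for. They are given as a description only, and no test is read from them. Among the cells, Arg1 was found in 86.4% to 100% in irradiated and 81.8% to 100% in control tumors (difference 1.23 points). At 2000 UMIs this difference was 16.9 points and without thinning 4.61 points, with every irradiated tumor above every control in both. It was -2.47 points at 8000 UMIs. Cells with all 3 genes made up 11.1%, 8.33%, 8.47% and 7.25% of them in irradiated tumors 1 to 4, and 0 of 38, 0 of 12 and 0 of 11 in the controls. These zeros allow up to 7.89%, 25% and 27.3%. The difference of 8.79 points turned to -3.71 points at 8000 UMIs and to -0.141 points at 2000 UMIs.

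The cells were set beside comparison macrophages of the same tumor as the summed counts of each population. Because the rule itself splits these populations, the ratios are a description with no test. They are log2 ratios of CPM + 2, averaged over 7 tumors. Among 3542 genes with at least 50 CPM in the higher population, 5.93% were higher and 5.79% lower in all 7 tumors. The cells were also deeper than comparison macrophages in every tumor, with median UMIs of 6414 to 14901 against 3961 to 10510. The ratios were therefore also taken against cells matched on UMIs in each tumor, and they are given where a named ratio moved by more than 1.5 times or no longer had the same sign in all 7 tumors. In such summed counts, fewer expressing cells and less RNA per cell cannot be told apart.

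Arg1 stood at 297, 199, 291 and 372 CPM in the cells of irradiated tumors 1 to 4 and at 218, 226 and 177 CPM in control tumors 1 to 3. The comparison macrophages held 13.7 to 98.4 CPM, below every value in the cells. Slfn4 stood at 247, 348, 338 and 455 CPM in the irradiated and at 219, 472 and 196 CPM in the control tumors, against 17.1 to 273 CPM. Chil3 stood at 11.4 to 66.4 CPM against 0.494 to 8.93 CPM, and was higher in Ly6c2 monocytes, with a mean of 177 CPM.

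Type I interferon genes were higher in the cells. Of 31 genes of that list with a level, 15 were higher in all 7 tumors and none was lower in all 7, with a median log2 ratio of 0.70 against -0.01 over all genes. Isg15, a ubiquitin-like protein that interferon induces, stood at 519, 748, 476 and 903 CPM in irradiated tumors 1 to 4 and at 468, 803 and 578 CPM in the controls. Its level in comparison macrophages ran from 180 to 616 CPM, and its log2 ratio was 1.02 ± 0.60 (SD, n = 7). Against cells matched on UMIs its ratio was 1.42, higher in 6 of 7 tumors. Ifit2, an antiviral protein that binds RNA, had a ratio of 1.14 ± 0.95, and Oasl1, a relative of the 2'-5' oligoadenylate synthetases, 0.96 ± 0.60 (SD, n = 7 each). Rsad2, which encodes viperin, was higher in 6 of 7 tumors with a ratio of 1.56, from 173 to 979 CPM in the cells against 81.5 to 252 CPM, and its matched ratio was 2.47. Irf7, a transcription factor of the interferon response, had a ratio of 0.78 ± 0.49, and the membrane protein gene Ifitm3 0.83 ± 0.54 (SD, n = 7 each). Ly6c2 monocytes held 559 to 1537 CPM of Isg15, 229 to 669 CPM of Irf7 and 1437 to 3143 CPM of Ifitm3, and each exceeded the cells in all 7 tumors. These monocytes numbered 15, 103, 44 and 288 in irradiated tumors 1 to 4 and 91, 28 and 40 in control tumors 1 to 3. Ifit2 was higher in monocytes except in control tumor 2 (135 against 432 CPM), and Oasl1 except in irradiated tumor 1 (102 against 196 CPM). Rsad2 was lower in monocytes of irradiated tumor 1 and control tumors 2 and 3 (356, 108 and 344 against 417, 979 and 419 CPM). It was higher there in the rest. Some of these monocyte values rest on few UMIs, 8 for Oasl1 in irradiated tumor 1, and 15 for Ifit2 and 12 for Rsad2 in control tumor 2. The list's median ratio was lowest in irradiated tumor 2 at 0.02 and highest in control tumor 2 at 1.53. Slfn4, through which 96.4% of the cells were chosen, belongs to the same response, and it is left out of these counts. Pooled over tumors, Isg15 stood at 635 CPM in the cells with Slfn4 and Arg1 alone. Comparison macrophages held 717 CPM with Slfn4 alone, 163 CPM with Arg1 alone and 193 CPM with none of the 3 genes. For Ifit2 these values were 178, 242, 29.9 and 49.2 CPM. The higher interferon levels thus went with Slfn4, also outside the rule, and not with Arg1. Of the other Schlafen genes, Slfn1 (1.10) and Slfn2 (0.52, matched 0.93) were higher in all 7 tumors and Slfn5 (0.71) in 6.

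**Figure D2:**
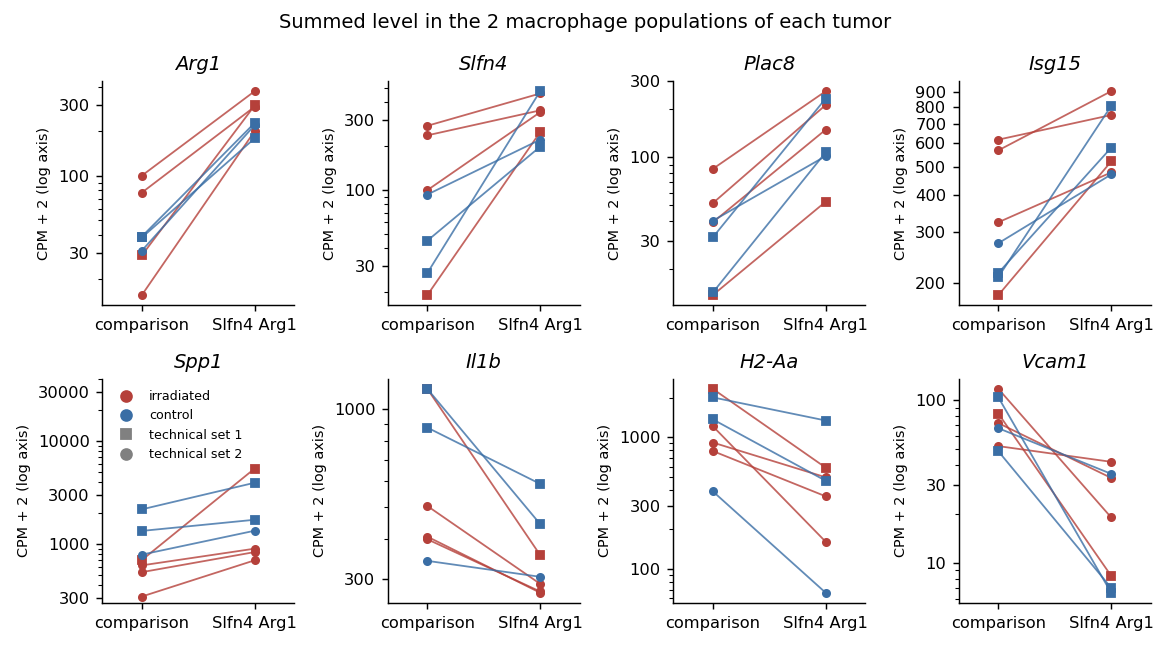
Summed level of 8 genes in comparison macrophages and Slfn4 Arg1 macrophages of each tumor (y axis, CPM + 2 on a log scale). Each line joins the populations of 1 tumor. Isg15, Plac8 and Spp1 rise and Il1b, H2-Aa and Vcam1 fall along all 7 lines, and Arg1 and Slfn4 were used to choose the cells.

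Monocyte genes were also higher, in 7 of 10 genes with a level in all 7 tumors, with a median log2 ratio of 0.54. Plac8, a gene of young myeloid cells, stood at 50.6, 211, 147 and 258 CPM in irradiated tumors 1 to 4 and at 99.8, 105 and 232 CPM in the controls, against 11.6 to 82.6 CPM. Its ratio of 2.10 ± 0.60 (SD, n = 7) was the highest among the genes outside the rule that were higher in all 7 tumors. Ly6c2 monocytes held more of it still, with a mean of 834 CPM. Ms4a4c had a ratio of 1.00, and Ly6a, a surface protein gene outside the list, 1.03. Both were higher still in Ly6c2 monocytes in all 7 tumors, at 394 to 857 and 788 to 1454 CPM.

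Genes of low oxygen, glycolysis and tissue remodeling were higher as well. Of 23 hypoxia and glycolysis genes with a level, 9 were higher and none was lower in all 7 tumors, with a median log2 ratio of 0.46. Vegfa, the vascular growth factor, had a ratio of 0.72 ± 0.50, higher in 6 of 7 tumors once matched, and Slc16a3, a lactate exporter, 0.88 ± 0.38 (SD, n = 7 each). Of 12 matrix, protease and remodeling genes 5 were higher in all 7 tumors. Thbs1, which encodes the matrix glycoprotein thrombospondin 1, stood at 585 CPM against 280 CPM on average, and the cell surface protease gene Adam8 at 105 CPM against 54.4 CPM. Ly6c2 monocytes held 490 to 1004 CPM of Thbs1 and 38.1 to 167 CPM of Adam8, so neither was particular to the cells. Spp1, which encodes osteopontin, averaged 2119 CPM against 924 CPM, and was at 5394 CPM in irradiated tumor 1 alone against 696 to 903 CPM in the other irradiated tumors. Its log2 ratio was 1.04, and 1.71 against matched cells. Ccl6, a chemokine of myeloid cells, had a ratio of 1.27 ± 0.78 (SD, n = 7). In Ly6c2 monocytes Ccl6 ran from 71.8 to 381 CPM, above the cells except in control tumors 2 and 3. Spp1 ran there from 630 to 2776 CPM, above the cells in irradiated tumor 3 and control tumors 1 and 2 and below them in the rest.

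MHC class II genes, which present antigen to CD4 T cells, were the lowest list. All 6 genes with a level were lower in all 7 tumors, with a median log2 ratio of -1.55, and of -1.29 against cells matched on UMIs. H2-Aa stood at 588, 355, 496 and 160 CPM in irradiated tumors 1 to 4 and at 64.2, 467 and 1343 CPM in the controls, while comparison macrophages held 387 to 2334 CPM. The ranges overlapped between tumors, but within each tumor the cells held less. H2-Eb1 had a ratio of -1.96 ± 1.02, and Cd74, the invariant chain of class II, -1.46 ± 0.70 (SD, n = 7 each).

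Of 21 mature tissue macrophage genes 7 were lower in all 7 tumors and none was higher, though the list's median log2 ratio was only -0.11. Outside the list, the adhesion molecule gene Vcam1 had the lowest ratio of all named genes at -2.15 ± 1.37, and the growth factor gene Igf1 had -1.83 ± 1.45 (SD, n = 7 each), the latter lower in 6 of 7 tumors once matched. Vcam1 held 1 UMI each in the cells of irradiated tumor 1 and control tumors 2 and 3, with ratios of -3.31, -2.79 and -3.99. In irradiated tumors 2 to 4 and control tumor 1 it held 15, 44, 106 and 43 UMIs, with ratios of -2.62, -1.12, -0.32 and -0.93. Within the list, Apoe, which carries lipids, had a ratio of -0.49, and Mrc1, the mannose receptor, was lower by little, at 811 CPM against 968 CPM. Against cells matched on UMIs Apoe had a ratio of -0.27, and both were lower in 5 of 7 tumors. Il1b stood at 354, 288, 273 and 271 CPM in irradiated tumors 1 to 4 and at 303, 587 and 441 CPM in the controls, against 340 to 1153 CPM. Its ratio of -0.82 ± 0.54 (SD, n = 7) was lower in 6 of 7 tumors against cells matched on UMIs. The lectin gene Clec4n was lower in all 7 tumors with a ratio of -0.99. The collagen genes Col1a1 and Col1a2 had ratios of -1.21 and -1.03, which shrank to -0.16 and -0.12 against cells matched on UMIs, and the 6 fibroblast markers summed to 54.6 to 357 CPM in the cells and to 77.5 to 551 CPM in comparison macrophages.

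Of 11 inflammatory cytokine and chemokine genes with a level, 5 were higher and 1, Il1b, was lower in all 7 tumors, with a median log2 ratio of 0.30, and of 0.59 against matched cells. Ccl9 had a ratio of 0.73, higher in 6 of 7 tumors once matched. Of 15 lysosome and lipid genes 4 were higher in all 7 tumors, among them the protease gene Ctsl (0.55) and the lipid droplet gene Plin2 (0.63). Of 24 genes that tissue dissociation induces, 2 were higher and 4 lower in all 7 tumors, and the heat shock gene Hspa1b had a ratio of -0.82, lower in 6 of 7 tumors once matched. The chemokine genes named by the study had ratios of 0.45 for Ccl2, 0.38 for Ccl7, 0.06 for Ccl12 and -0.80 for Ccl8. Against matched cells those of Ccl7 and Ccl12 were 0.23 and 0.11, with Ccl7 higher in 4 and Ccl12 in 3 of 7 tumors. Of the genes of arginine and polyamine metabolism other than Arg1, 3 had a level and none moved the same way in all 7 tumors. Nos2, which makes nitric oxide from arginine, had 0 to 2 UMIs per tumor.

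**Figure D3:**
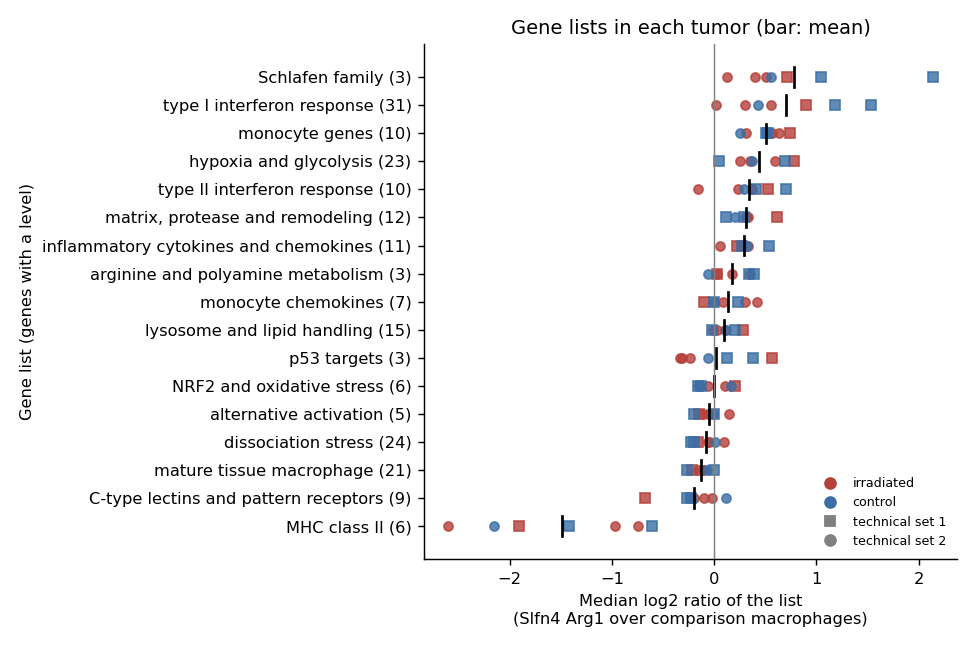
Median log2 ratio of 17 gene lists in each tumor, Slfn4 Arg1 macrophages over comparison macrophages (x axis), with the number of genes with a level in brackets. Points are tumors and black bars the mean of 7 tumors. MHC class II lies below 0 and the type I interferon list above 0 in all 7 tumors.

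Chil3 marked a minority with a different profile. Pooled over tumors, the 110 cells with Chil3 held 2603 CPM of C1qa, 405 CPM of Mrc1 and 539 CPM of Plac8, whereas the 466 cells with Slfn4 and Arg1 alone held 5152, 845 and 117 CPM. Clec4e stood at 85.9 CPM in the cells with Chil3 and at 31.6 CPM in those without when pooled, and at 64.4 and 39.1 CPM as means over tumors. Cells just outside the rule, with 1 of the 3 genes, held 2097 CPM of Cd74 and 62.3 CPM of Plac8, those just inside with 2 genes held 1022 and 155 CPM, and those with none held 4653 and 15.5 CPM. Not every pooled value followed this order. With all 3 genes the values were 1236 and 591 CPM, and the 65 cells outside the rule with Chil3 alone held 6368 and 571 CPM. As means over tumors, Cd74 stood at 4428 CPM with none, 2319 with 1, 1433 with 2 and 932 with all 3 genes, and at 6045 CPM with Chil3 alone. Median UMIs were 4926 with none, 7997 with 1, 11325 with 2 and 11008 with all 3 genes, and their part in these values was not tested.

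Irradiated and control tumors were then compared within the cells, with edgeR's quasi-likelihood test on the summed counts of 20 to 224 cells per tumor. Of 7587 genes tested, 0 passed an adjusted p of 0.05 (0%), the smallest adjusted p was 0.544, and 344 had an unadjusted p under 0.05. DESeq2's Wald test also called 0, with 133 at an unadjusted p under 0.05. Leaving out irradiated tumor 3 gave 1 call, Cd38, an ectoenzyme that was lower in irradiated tumors (edgeR log2 fold change -2.41, adjusted p = 0.0478). Groups did not overlap for 3.68% of genes with irradiated tumors higher and for 2.44% with irradiated tumors lower.

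Differences without overlap are therefore given as values only, and those of Mgp and Gclm follow with the fit that passed them. AA467197, a small mitochondrial protein gene, stood at 120, 87.4, 69 and 150 CPM in irradiated tumors 1 to 4 and at 47.2, 35.1 and 22.8 CPM in the controls (edgeR log2 fold change 1.37 ± 0.32 SE, adjusted p = 0.639). Arrb1, which encodes beta-arrestin 1, averaged 34.7 CPM against 12.4 CPM, and Zbtb7b, a transcription factor gene, 33.7 CPM against 11.8 CPM. In control tumors 2 and 3 these levels rest on 3 and 2 UMIs of Arrb1 and on 2 UMIs each of Zbtb7b. Klf4, a transcription factor of monocytes and macrophages, averaged 296 ± 43.5 CPM (SD, n = 4) against 441 ± 66.4 CPM (SD, n = 3) (edgeR log2 fold change -0.61 ± 0.16 SE, adjusted p = 0.697). Its log2 difference was -0.65 within set 1 and -0.66 within set 2.

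When the sets entered the fit, 5 genes passed, all lower in irradiated tumors (0.0659% of genes). They were Tnfaip2, Col3a1, Gclm, Mgp and Postn. Gclm, the modifier subunit of the enzyme that starts glutathione synthesis, stood at 6.32, 17, 17.1 and 14.3 CPM in irradiated tumors 1 to 4 and at 61.1, 20.1 and 18.2 CPM in the controls. Control tumor 1 thus stood far above the rest, and the value in irradiated tumor 1 was 1 UMI. Its edgeR log2 fold change was -1.95 with the set term (adjusted p = 0.00429), -1.57 without it (adjusted p = 0.544) and -0.37 without control tumor 1 (adjusted p = 0.933). Tnfaip2, a gene that tumor necrosis factor induces, moved likewise, from -2.14 with the set term (edgeR adjusted p = 0.00253) to -0.54 without control tumor 1 (adjusted p = 0.884). Col3a1, Postn and Mgp encode matrix proteins, and Col3a1 turned to 0.61 without control tumor 1. Mgp stood at 25.3, 37.5, 45.5 and 17.6 CPM in irradiated tumors 1 to 4 and at 161, 60.2 and 63.7 CPM in the controls. The edgeR log2 fold change of Mgp was -2.27 with the set term (adjusted p = 0.0102) and -1.9 without it (adjusted p = 0.639). Without control tumor 1 it was -1.04 (edgeR adjusted p = 0.701). The fibroblast marker sum in the cells was 71.7 to 126 CPM in irradiated and 54.6 to 357 CPM in control tumors, and its part in these values was not tested.

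**Figure D4:**
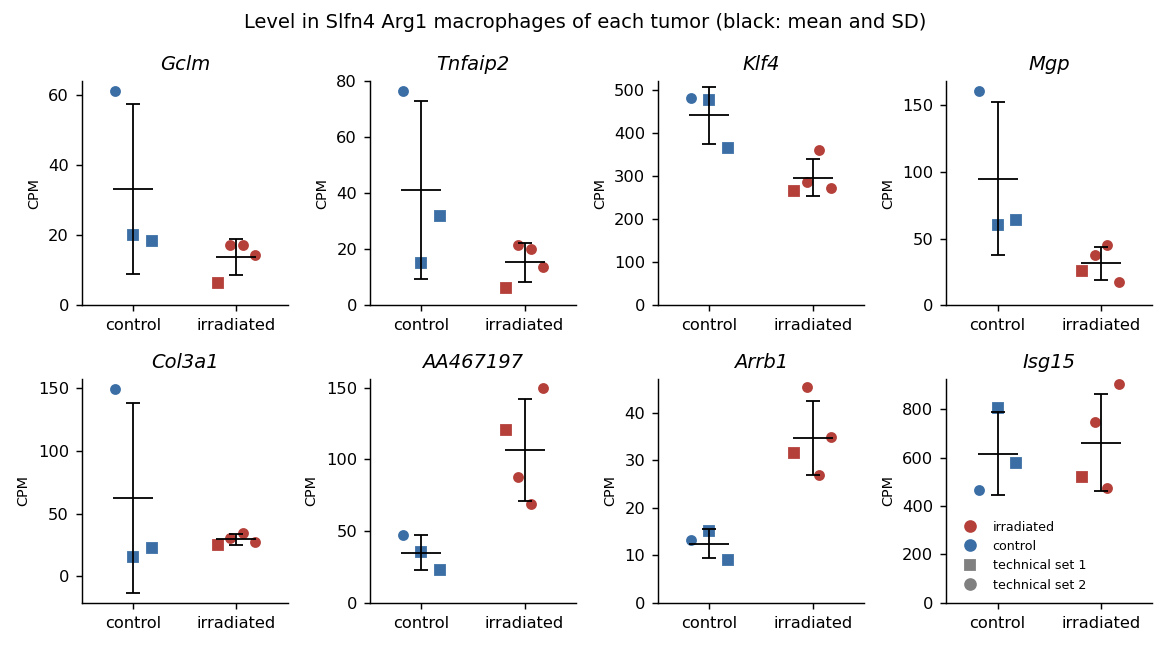
Level of 8 genes in Slfn4 Arg1 macrophages of each control and irradiated tumor (y axis, CPM), with black bars for the mean and SD of 3 and 4 tumors. For Gclm, Tnfaip2, Mgp and Col3a1 control tumor 1 is the highest point, and Isg15 overlaps between groups.

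No gene of any list passed between irradiated and control tumors in the fit without the sets, while Gclm of the oxidative stress list and the fibroblast marker Col3a1 passed in the fit with them. The type I interferon list had 30 of 43 tested genes higher in irradiated tumors, with a median log2 fold change of 0.14 against 0.00 over all genes, and the median difference was -0.35 within set 1 and 0.36 within set 2. Isg15 overlapped between groups. Ccl12 lay higher in every irradiated tumor, at 1360 to 1582 CPM against 1168 to 1279 CPM (edgeR log2 fold change 0.23 ± 0.14 SE, adjusted p = 1). Ccl2 (0.51), Ccl7 (0.39), Ccl8 (0.16), Irf7 (0.25) and Ifitm3 (0.31) also had log2 fold changes above 0 with overlapping groups, each with an edgeR adjusted p of 1. Of 29 hypoxia and glycolysis genes 25 were higher, against 49.7% of all genes, with a median of 0.25. That median was 0.19 with the sets in the fit, and the median difference was 0.68 within set 1 and 0.12 within set 2. MHC class II had a median of -0.22, which became 0.89 with the set as a term, and the median difference was -0.34 within set 1 and 1.92 within set 2.

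Whether the irradiation change differed between the cells and comparison macrophages was tested as an interaction in 11255 genes. None passed (0%), with a smallest edgeR adjusted p of 0.06 and 462 genes at an unadjusted p under 0.05, and DESeq2 called 0 with 217. When the sets entered the fit 4 genes passed, of which Lpl, Tnfaip2 and Gclm had a lower and Tspan5 a higher change in the cells (smallest edgeR adjusted p = 0.000105, for Lpl). In the cells Lpl held 33 UMIs in control tumor 1, the only control of set 2, and 0 to 7 UMIs in every other tumor. Genes of the type I interferon list had a smaller irradiated-minus-control difference in the cells for 42 of 43 genes, against 47.7% of all genes, with a median interaction of -0.50 against 0.02. The cells of both groups were chosen largely through Slfn4, a gene of the same response, and comparison macrophages were not, so the choice of cells and a difference in the irradiation change cannot be told apart in these values. When the fit allowed for the sets, the median was -0.23. The median within-tumor ratio differed by -0.42 within set 1 and by -0.14 within set 2. Irf7 averaged 287 CPM in irradiated and 240 CPM in control tumors in the cells, against 211 and 116 CPM in comparison macrophages (edgeR interaction -0.54, adjusted p = 1). Leaving out control tumor 1 raised the calls to 15, among them Irf7 (edgeR interaction -0.99, adjusted p = 0.0176), and leaving out any other tumor gave 0 to 5.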

How the data were processed

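Cells of 7 tumors were profiled with a 10x 3' assay, 10000 cells loaded per library. The deposited files hold raw UMI counts per gene and called cell, made by the authors with Cell Ranger, version 8.0.0 per the file headers. The study states mm10 and an earlier Cell Ranger version. Of 33696 listed genes, 1684 have identifiers absent from GENCODE M21, so no coordinates were taken from the files. Promoter sequences are from RefSeq (GRCm38.p6).

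The rule, gene lists and named genes were chosen with earlier results of these data known. The text names the genes of the rule, the 20 highest and 20 lowest ratios among genes at 50 CPM or more with 1 sign in all tumors, the 3 largest changes per list, the 5 highest and 5 lowest non-overlapping fold changes at 20 CPM or more, and 7 genes the study named, of which 1 is not reported here. Other genes were named after their values were seen.

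Counts were summed per tumor and population. Irradiated and control tumors were compared with edgeR 4.0.16 (quasi-likelihood, TMM, filterByExpr, Benjamini-Hochberg) in R 4.3.3, with DESeq2 1.42.0 as an alternative, after a check on simulated data. Shares were compared with two-sided exact permutation tests (scipy 1.17.1) on cells thinned to 4000 UMIs, with shallower cells left out. Log2 ratios used a pseudocount of 2 CPM. Doublets were called with Scrublet (scanpy 1.11.5) and not removed. Tumors are the replicates, and p-values measure the spread between them. Intervals cover counting error only. Lists left out the 16 genes of the rule, and 1 listed gene was not matched.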

Additional observations from a re-analysis of the deposited data

Results flagged for a closer look

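In the 4 irradiated tumors, 4 gene levels in the cells had a single tumor far from the other 3, out of 66 shares and gene levels looked at, where chance flags about 1 in 20. Spp1 was highest in irradiated tumor 1 (5390 CPM, against 696 to 903 CPM in the others), and so was the heat shock gene Hsph1 (285 CPM, against 57.9 to 83.7 CPM). The chemokine gene Cxcl1 was highest in irradiated tumor 2 (190 CPM, against 0 to 21.4 CPM). Tlr1, a receptor for bacterial lipoproteins, was highest in irradiated tumor 3 (24.2 CPM, against 19 to 19.3 CPM). Irradiated tumor 1 gave only 20 of these cells.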

How the results depend on the processing

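The share of the macrophage compartment and that of all retained cells stayed above 0 and past no threshold under all 14 alternatives each, from 1.97 to 6.81 and from 0.77 to 2.79 percentage points. The share of the cells with Arg1 was 16.9 points at 2000 UMIs, 4.61 without thinning and -2.47 at 8000 UMIs, and leaving out 1 tumor each gave -3.52 to 5.57 points. The share with all 3 genes turned to -0.141 points at 2000 UMIs and to -3.71 points at 8000 UMIs. The cause was not tested.

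Genes changed in the cells numbered 0 in 13 of 17 alternatives, 36 without a filter on low counts (7 higher, 29 lower), 5 with the technical set as a term, 3 in set 2 alone (chosen after seeing the data, with control tumor 1 as its only control and assumed to vary like the irradiated tumors), and 0 to 1 when 1 tumor each was left out (Cd38 without irradiated tumor 3). Genes with an unequal irradiation change numbered 14 without the filter, 4 with the technical set as a term, 7 with cells holding all 3 genes, 1 against comparison macrophages matched on UMIs (chosen after seeing the data), and 0 to 15 when 1 tumor each was left out. The 15 came without control tumor 1, and among them Irf7 and Ms4a4c had smaller changes in the cells.

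Replicate numbers did not pair the tumors (correlations of -0.087, -0.0704 and -0.0117). With the replicate block, 17 genes had an unequal change and 0 changed in the cells, and the share of the compartment differed by 1.97 points. With 20 to 33 cells in 3 tumors, low genes rest on few UMIs.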
